A study of Mus musculus with 4 samples.

Results

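Cholesterol and fatty acid synthesis genes, together with the SREBP and LXR factors that control them, were examined in kidney RNA of mice given cisplatin. The set comprised 34 genes among the 29190 genes of the count table, picked by symbol and not by a threshold on their values. Earlier results of these data were known when they were chosen. Of the 34 genes, 33 had enough counts to be tested among 17419 genes. By role the set held 5 genes of SREBP control, 7 of the mevalonate steps, 11 of the sterol steps, 1 sterol carrier, 5 of fatty acid synthesis and 5 LXR receptors or targets.

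The animals were male C57 mice aged 8 weeks, with no gene alteration named in the labels. One group received cisplatin, a platinum drug that damages renal tubules, at 30 mg/kg, and the control group received physiological saline. Each group had 2 libraries, called biological replicates by the submitters, of rRNA-depleted total RNA from kidney tissue. The protocol described 18 mice in 3 groups, with cisplatin given 24 h or 48 h before death. The sources used here give neither the time of the cisplatin libraries nor whether a library was 1 animal or a pool, and p-values measure the spread between these libraries.

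As background, SREBP proteins are membrane-bound transcription factors of the endoplasmic reticulum. When membrane sterol is low, the escort protein SCAP carries them to the Golgi, where proteases release the active factor, and INSIG proteins hold SCAP back when sterol is plentiful. SREBP2, encoded by Srebf2, chiefly drives cholesterol synthesis genes, and SREBP1, encoded by Srebf1, chiefly drives fatty acid synthesis genes. LXR receptors sense oxysterols and raise genes that export cholesterol, as well as Srebf1. In the kidney the proximal tubule is a major site of lipid handling.

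Promoter sequences are shown first because SREBP acts through a short sterol regulatory element, often near a CCAAT box. RefSeq promoter windows of GRCm38.p6, from 250 bases before to 50 bases after a start, were found for 27 of the 34 members (36 windows). Windows of 3 members are printed up to the start, for an enzyme transcript that was lower after cisplatin and holds the element (Hmgcs1), one that was lower with no match to it (Nsdhl), and one that was higher with no match to it (Fasn). Capitals mark matches to TCACNCCA and to CCAAT on either strand (ATTGG on the other).
Hmgcs1, plus strand, chr13:119690101-119690350: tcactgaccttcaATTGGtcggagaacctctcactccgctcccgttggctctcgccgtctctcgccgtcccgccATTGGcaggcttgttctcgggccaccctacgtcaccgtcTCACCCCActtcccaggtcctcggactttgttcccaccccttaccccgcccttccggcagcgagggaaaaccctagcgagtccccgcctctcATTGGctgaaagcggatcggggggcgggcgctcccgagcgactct
Nsdhl, plus strand, chrX:72918271-72918520: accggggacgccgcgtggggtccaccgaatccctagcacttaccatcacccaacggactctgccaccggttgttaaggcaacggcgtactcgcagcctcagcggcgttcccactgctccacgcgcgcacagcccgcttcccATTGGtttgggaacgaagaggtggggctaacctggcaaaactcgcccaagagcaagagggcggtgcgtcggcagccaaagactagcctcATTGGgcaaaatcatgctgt
Fasn, minus strand, chr11:120824548-120824797: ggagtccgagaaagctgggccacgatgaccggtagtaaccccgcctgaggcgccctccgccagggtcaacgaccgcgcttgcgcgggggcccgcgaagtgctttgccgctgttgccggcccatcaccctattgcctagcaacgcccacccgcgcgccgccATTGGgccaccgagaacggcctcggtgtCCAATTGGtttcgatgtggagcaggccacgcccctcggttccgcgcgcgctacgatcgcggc

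The 9 letters TCACCCCAC occurred on either strand in 181 of 32817 promoter windows (0.552%) and in 1 member window, that of Hmgcs1. The relaxed form TCACNCCA, which contains the first 8 of those letters and so counts the same Hmgcs1 site again, occurred in 4.36% of all windows and in 3 of 36 member windows, those of Hmgcs1, Msmo1 and Srebf2. Its 3 sites are printed below because the transcripts that carry them did not move alike: Hmgcs1 fell, Msmo1 rose and Srebf2 was not called. Capitals here mark the relaxed form only, and each first letter lies at the given distance from the RefSeq start. The Msmo1 stretch lies inside the GENCODE M21 gene, whose start is 64733792 on the minus strand. Those of Hmgcs1 and Srebf2 lie before their GENCODE starts.
Hmgcs1, plus strand, chr13:119690207-119690236, at -137: caccgtcTCACCCCActtcccaggtcctcg
Msmo1, minus strand, chr8:64733733-64733762, at -177: actattcTCACTCCAtccgcgcagccaatg
Srebf2, plus strand, chr15:82147100-82147129, at -162: cgcaccaTCACCCCAtgagccgcttcgcgc

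CCAAT was present in 21 of the 36 member windows (58.3%) against 37.4% of all windows. The GC box GGGCGG, a binding sequence of Sp1, was present in 25 member windows (69.4%) against 35.6% of all. The E-box CACGTG was present in 7 member windows (19.4%) against 7.15%. These are letter matches on both strands and not measured binding. Some members contribute more than 1 window, so windows are not independent.

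After cisplatin, most transcripts of the cholesterol pathway were lower, while a few members rose against that direction. Hmgcs1, Cyp51, Nsdhl, Stard4, Mvd, Scd1 and Ebp were at least 3.20-fold lower, and Msmo1, Abcg1, Fasn, Srebf1 and Scap rose between 1.43-fold and 2.65-fold. Of 33 tested members, 22 fell (66.7%), 6 rose (18.2%) and 5 were not called. A call means a Benjamini-Hochberg adjusted p under 0.05, taken over all genes tested, in the quasi-likelihood test of edgeR. Over all 17419 genes the response was broad: 73.6% were called, 37.2% higher and 36.4% lower. Read against that, the members' share of lower calls was above the background and their share of higher calls below it. The median log2 fold change was -0.59 over the members and 0.04 over all genes tested.

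The scaling of the libraries matters here. With library size alone, without the TMM composition factors of 0.86 to 1.15, the median over all genes moved from 0.04 to 0.41 and the calls over all genes moved to 9110 higher and 4207 lower, from 6487 and 6333. The members then split into 10 higher and 16 lower, with a median of -0.23, which still lay below that of all genes. Across 14 alternative settings, 14 falls (Acat2, Hmgcs1, Mvk, Mvd, Idi1, Cyp51, Nsdhl, Ebp, Sc5d, Stard4, Acaca, Scd1, Nr1h3 and Abca1) and 5 rises (Srebf1, Scap, Msmo1, Fasn and Abcg1) kept direction and call. Small changes of the other members are to be read relative to the shift of all genes.

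At least 2-fold falls were found for 11 members (33.3%), against 16.1% of all genes, and an at least 2-fold rise for 1 member, Msmo1, against 19.2% of all genes. For 31 of 33 members the values of the 2 groups did not overlap, against 86.3% of all genes, and separation of the groups was common in these libraries. The summed level of the members was 1317 and 1324 CPM after cisplatin and 2860 and 2918 CPM in saline, where CPM are counts scaled to a common library size with TMM composition factors. Hmgcs1 and Cyp51 alone made up 44.6% and 45.0% of that sum in saline and 20.9% and 19.5% after cisplatin. Without them the sums were 1042 and 1066 CPM against 1585 and 1604 CPM.

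**Figure D1:**
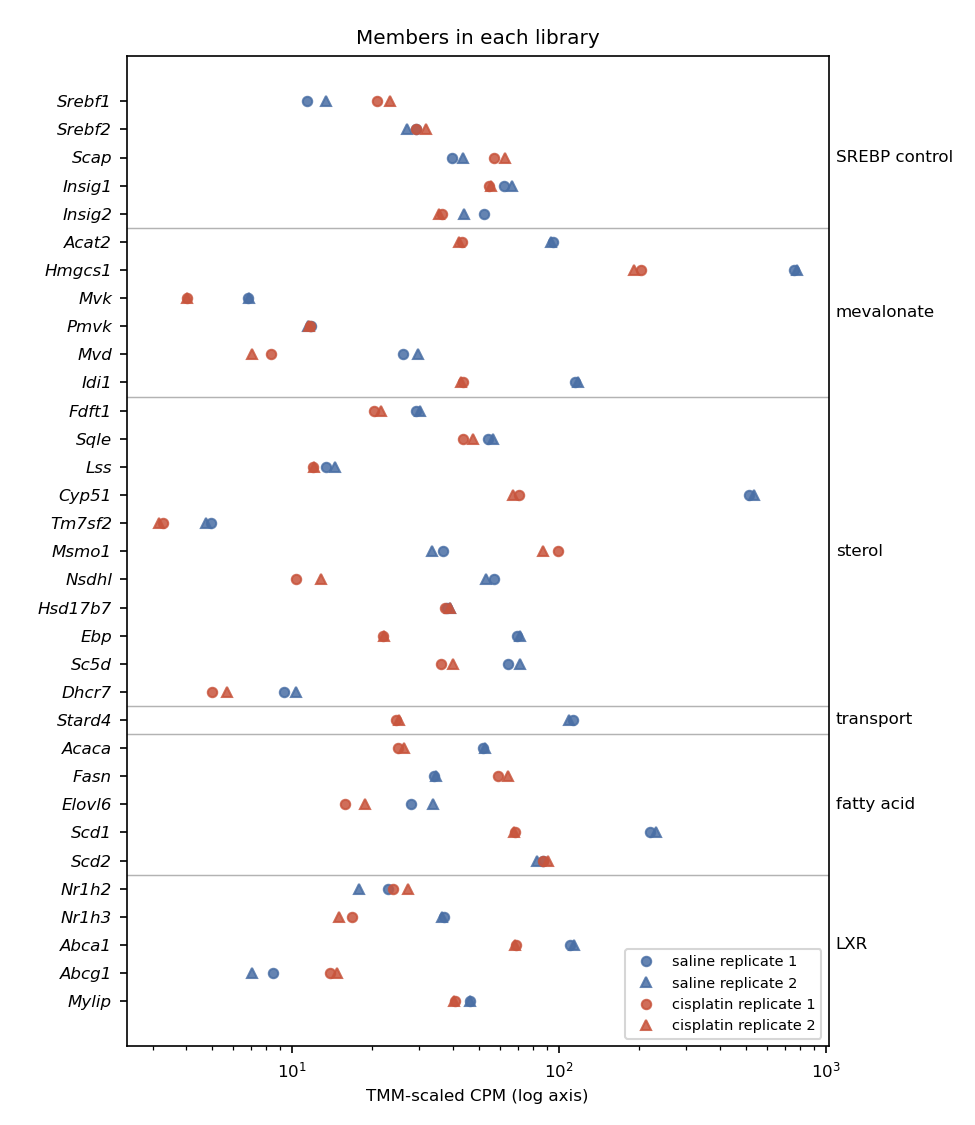
TMM-scaled CPM (log axis) of the 33 tested members in each library, grouped by role, with saline in blue, cisplatin in red, circles for replicate 1 and triangles for replicate 2. Hmgcs1 and Cyp51 lie at 516 to 778 CPM in the saline libraries and the highest value after cisplatin is 204 CPM, while Msmo1 lies to the right of its saline points.

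Kidney cell markers moved with these changes, and in bulk RNA fewer cells of a type and less RNA per cell cannot be told apart. Their counts are to be read against 36.4% lower and 37.2% higher over all genes tested. All 10 proximal tubule markers fell (median log2 fold change -2.80), from summed levels of 22251 and 22669 CPM in saline to 3329 and 3278 CPM after cisplatin. All 6 thick limb and distal tubule markers fell as well (median -1.70), from 7513 and 7596 CPM to 2323 and 2240 CPM. Macrophage and monocyte markers rose for 8 of 11 genes and fell for 1, from 109 and 118 CPM to 274 and 289 CPM. All 5 tested neutrophil markers of 6 rose, from 4.11 and 2.91 CPM to 33.1 and 30.4 CPM, and Ly6g had 0 counts in both saline libraries. Endothelial markers rose for 3 of 5 genes and fell for 1, from 486 and 480 CPM to 564 and 559 CPM. The part of these shifts in the members' changes was not tested.

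Markers of 2 lipid-rich tissues next to the kidney were also read, and 37.2% of all genes tested were called higher. Of 8 adipocyte markers 3 were tested and all 3 rose (Cidec, Fabp4 and Plin4), with a list sum of 70.8 CPM in each cisplatin library against 37.7 and 38.4 CPM in saline. Most of that sum was Fabp4, at 54.2 and 52.4 CPM against 35.6 and 36.7 CPM. Cidec had 130 and 173 counts after cisplatin and 2 and 1 in saline. Of the untested adipocyte markers, Adipoq, Plin1, Lep and Cfd had at most 3 counts in any library. Retn, also untested, had 8 and 7 counts after cisplatin and 0 in both saline libraries. Of 7 adrenal cortex markers 2 were tested and both rose (Star and Mc2r), with a list sum of 4.34 and 3.89 CPM against 0.703 and 1.11 CPM. The steroid enzymes Cyp11a1, Cyp11b1, Cyp11b2 and Cyp21a1 had at most 4 counts in any library.

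The SREBP control genes did not move as one. Srebf1 lies on chromosome 11 (GRCm38, 60199089 to 60222581, minus strand) and had 20.8 and 23.4 CPM after cisplatin against 11.4 and 13.4 CPM in saline. Both cisplatin libraries lay above both saline libraries, a 1.77-fold rise (log2 fold change 0.83, SE 0.11, edgeR adjusted p 1.51e-06). Srebf2, on chromosome 15, had 29.06 and 31.6 CPM against 29.06 and 26.8 CPM. Its groups nearly touched, and the log2 difference of 0.12 (SE 0.09) was not called by edgeR (adjusted p 0.219). It was called higher with upper-quartile scaling (0.24, adjusted p 0.0197) and with library size alone (0.49, adjusted p 2.21e-05), and by limma on log2(FPKM + 0.1) (0.38, adjusted p 0.0242) and log2(FPKM + 1) (0.31, adjusted p 0.0291).

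Scap, the sterol-sensing escort of both factors, rose from 39.7 and 43.7 CPM to 56.9 and 62.7 CPM, with no overlap. That is a log2 fold change of 0.52 (SE 0.07, edgeR adjusted p 2.60e-06). Insig1, an SREBP target that retains SCAP, had 54.8 and 55.6 CPM after cisplatin against 62.4 and 66.9 CPM in saline. The fall was small (-0.23, SE 0.06, edgeR adjusted p 2.74e-03), and its sign depended on the scaling, with 0.14 when library size alone was used. Insig2, the second retention protein, had 36.4 and 35.4 CPM against 52.5 and 44.1 CPM, with the cisplatin libraries close together and below both saline libraries (-0.42, SE 0.08, edgeR adjusted p 1.15e-04). Its fall was no longer called when library size alone was used. Scaling thus moved the control genes as a group, from 2 higher and 2 lower of 5 with TMM to 3 higher and 0 lower with library size alone. The TMM split was near the 37.2% higher and 36.4% lower of all genes. Calls over all genes moved the same way, from 6487 higher and 6333 lower to 9110 and 4207.

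The mevalonate steps turn acetyl-CoA into isoprenoid units. Of 6 tested members 5 fell (83.3%, against 36.4% of all genes) and none rose, against 37.2% of all genes (median log2 fold change -1.29). Acat2, the cytosolic thiolase that makes acetoacetyl-CoA, had 43.1 and 42.1 CPM after cisplatin against 95.2 and 93.5 CPM in saline. Hmgcs1, the cytosolic HMG-CoA synthase (chromosome 13, 119690379 to 119708260, plus strand), had 204 and 191 CPM against 759 and 778 CPM. For both genes the cisplatin libraries lay far below the saline libraries, by 2.21-fold and 3.90-fold. The log2 fold change of Hmgcs1 was -1.96 (SE 0.06, edgeR adjusted p 1.94e-16).

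Mvk, mevalonate kinase, was a low transcript at 4.05 CPM in each cisplatin library and 6.82 and 6.88 CPM in saline, a fall with no overlap (-0.76, SE 0.17, edgeR adjusted p 4.42e-04). Pmvk, the kinase of the next step, had 11.6 and 11.5 CPM against 11.8 and 11.5 CPM. Its groups overlapped and the log2 difference was -0.01 (SE 0.12, edgeR adjusted p 0.956). Mvd, the decarboxylase that ends the mevalonate chain, had 8.35 and 7.06 CPM against 26.0 and 29.6 CPM, a 3.63-fold fall. Idi1, which isomerises isopentenyl diphosphate, had 43.6 and 42.8 CPM against 115 and 118 CPM, a 2.70-fold fall. Thus the transcripts on both sides of Pmvk fell and Pmvk itself did not pass the test, although with library size alone it was called higher (0.36, edgeR adjusted p 0.0104).

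Fdps, the farnesyl diphosphate synthase, could not be read. It had 1 count in each cisplatin library and 0 and 3 counts in the saline libraries, at or under the limit of 3 counts. The annotated gene Gm43738 covers 1124 of its exon bases on the same strand (26.7%), and had 398 and 357 counts after cisplatin and 197 and 255 in saline. The sources used here do not give how reads shared by these genes were counted, and the near absence of Fdps counts is no measure of its transcript.

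The sterol steps build cholesterol from farnesyl diphosphate. Of 11 members 8 fell (72.7%, against 36.4% of all genes), 1 rose (9.09%, against 37.2%) and 2 were not called. The median log2 fold change was -0.59. When library size alone was used the split was 5 lower and 2 higher, against 4207 lower and 9110 higher of 17419 genes. The first 3 enzymes differed by less than 2-fold. Fdft1, squalene synthase, had 20.3 and 21.5 CPM after cisplatin against 29.2 and 30.1 CPM in saline (-0.51, SE 0.09, edgeR adjusted p 4.48e-05). Its exons overlap those of Ctsb on the opposite strand over 18.3% of their length, and Ctsb had 9326 to 15103 counts per library. Reads of the 2 genes cannot be told apart unless strand was used. Its fall was not called under library size alone.

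Sqle, squalene epoxidase and a rate-limiting step, had 43.7 and 47.4 CPM against 54.3 and 56.5 CPM, a small fall without overlap (-0.28, SE 0.07, edgeR adjusted p 1.05e-03). Its sign turned, to 0.08, with library size alone. Lss, which closes the sterol rings to lanosterol, had 12.02 and 12.11 CPM against 13.4 and 14.5 CPM and was not called (-0.21, SE 0.11, edgeR adjusted p 0.0925).

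Cyp51, the lanosterol demethylase (chromosome 5, 4081145 to 4104746, minus strand), fell most of all tested members. It had 1681 and 1737 counts after cisplatin and 9535 and 13075 in saline, or 70.9 and 67.0 CPM against 516 and 536 CPM. Every saline value was over 7 times every cisplatin value, and the fall was 7.63-fold (log2 fold change -2.93, SE 0.06, edgeR adjusted p 1.94e-18). Tm7sf2, a sterol reductase of the following step, was low at 3.29 and 3.16 CPM against 4.98 and 4.75 CPM (-0.59, SE 0.19, edgeR adjusted p 9.28e-03). Its call was lost without cisplatin replicate 2 (adjusted p 0.0522), by DESeq2 (adjusted p 0.0962) and with library size alone, and 12.1% of its exon bases are shared with Vps51 on the same strand.

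Removal of the methyl groups at carbon 4 needs 3 enzymes that act in turn, and their transcripts moved apart. Msmo1, the oxidase of that trio (chromosome 8, 64718139 to 64733792, minus strand), had 2344 and 2257 counts after cisplatin and 680 and 819 in saline, or 98.9 and 87.0 CPM against 36.8 and 33.6 CPM. Both cisplatin libraries were above both saline libraries, a 2.65-fold rise (log2 fold change 1.40, SE 0.07, edgeR adjusted p 7.30e-13). Nsdhl, the dehydrogenase (chromosome X, 72918557 to 72958514, plus strand), had 10.3 and 12.8 CPM against 56.9 and 53.1 CPM. It fell 4.73-fold (-2.24, SE 0.10, edgeR adjusted p 6.65e-14). Hsd17b7, the ketoreductase, had 37.4 and 39.0 CPM against 38.0 and 39.2 CPM, with overlapping groups (-0.02, SE 0.07, edgeR adjusted p 0.855), but was called higher with library size alone (0.35, edgeR adjusted p 4.28e-04).

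The last enzymes of the pathway all fell without overlap. Ebp, the sterol isomerase, had 21.9 and 22.2 CPM after cisplatin against 69.8 and 71.5 CPM in saline. Sc5d, the C5 desaturase, had 36.3 and 40.1 CPM against 64.3 and 71.5 CPM. Dhcr7, a terminal reductase, had 5.02 and 5.71 CPM against 9.36 and 10.3 CPM. These were falls of 3.20-fold, 1.78-fold and 1.84-fold, with log2 standard errors of 0.07, 0.07 and 0.15, and limma on log2(FPKM + 0.1) did not call Dhcr7 (adjusted p 0.0523). Stard4, a carrier that moves cholesterol between membranes, had 24.5 and 25.2 CPM against 113 and 109 CPM, a 4.45-fold fall (-2.16, SE 0.06, edgeR adjusted p 9.73e-17).

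Taking the 17 tested mevalonate and sterol enzymes as one list, 13 fell (76.5%, against 36.4% of all genes), 1 rose (5.88%, against 37.2%) and 3 were not called. Their median log2 fold change was -0.83. With library size alone 10 fell and 3 rose, with a median of -0.47. All 17419 genes then split into 4207 lower and 9110 higher, with a median of 0.41. The falls were uneven: Pmvk, Lss and Hsd17b7 were not called, and Sqle fell by 0.28 on the log2 scale.

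**Figure D2:**
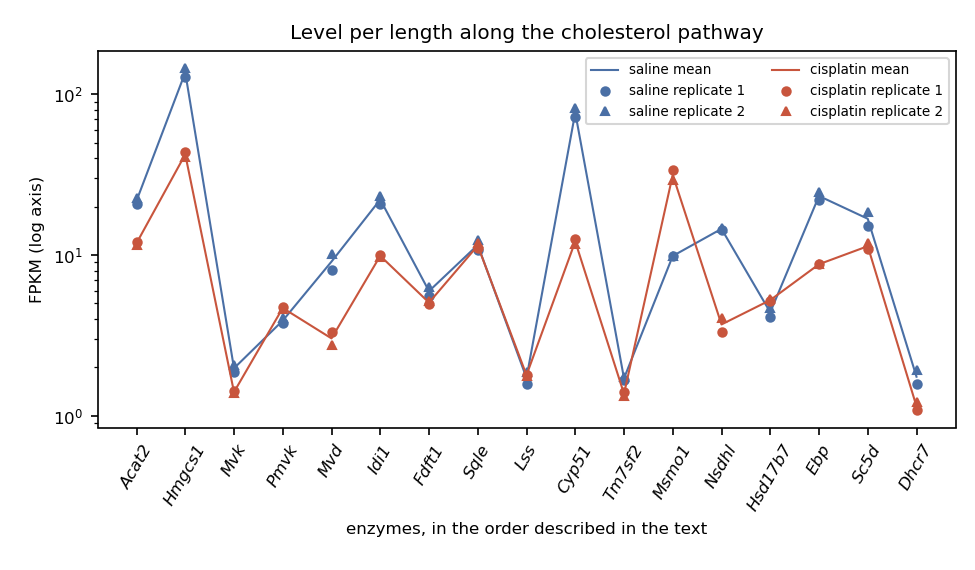
Deposited FPKM (log axis) of the 17 tested mevalonate and sterol enzymes in the order of the text, with a point per library and a line through each group mean. The saline line has its highest points at Hmgcs1 and Cyp51, and the cisplatin line lies below it at both and above it at Msmo1. On this scale it also lies above saline at Pmvk, Lss and Hsd17b7, which were not called with TMM.

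Levels between genes were compared on the deposited FPKM scale, which divides by transcript length, and as a description only. In saline Hmgcs1 stood first at 136.8 ± 11.7 FPKM (SD, n = 2), followed by Cyp51 at 77.0 ± 7.28, Scd1 at 26.8 ± 2.81, Ebp at 23.3 ± 1.98, Idi1 at 22.2 ± 1.87 and Acat2 at 21.8 ± 1.19. Hmgcs1, Cyp51 and Scd1 each exceeded the next by more than either SD, whereas Ebp and Idi1, and Idi1 and Acat2, differed by less. After cisplatin Hmgcs1 still stood first at 42.3 ± 2.45 FPKM, and Msmo1 was next at 31.5 ± 3.23, up from place 12 in saline (9.87 ± 0.0283). Insig1 (14.2 ± 0.0354) and Cyp51 (12.2 ± 0.643) took places 3 and 4. The lowest tested member in saline was Abcg1 at 1.24 ± 0.0778 FPKM. Srebf1 at 1.67 ± 0.304, Tm7sf2 at 1.71, Lss at 1.72 and Dhcr7 at 1.75 FPKM came next and were apart by less than the SD of Srebf1.

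Ratios of counts between 2 members within a library do not depend on how libraries are scaled. They show the change of 1 member relative to another under any scaling. As the scaling cancels, they cannot say which scaling is right or whether either member rose or fell. Such a ratio still holds the lengths of both genes, and only its change between libraries is read. Msmo1 over Nsdhl was 9.57 and 6.78 after cisplatin and 0.646 and 0.632 in saline. Msmo1 over Cyp51 was 1.39 and 1.30 against 0.0713 and 0.0626. Both cisplatin libraries lay above both saline libraries, by 12.8-fold and 20.1-fold between the group means. Srebf1 over Srebf2 was 0.716 and 0.739 against 0.391 and 0.499, also without overlap. Insig1 over Insig2 was 1.51 and 1.57 against 1.19 and 1.52, so saline replicate 2 lay between the cisplatin values. These ratios were chosen after values were seen and carry no test.

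**Figure D3:**
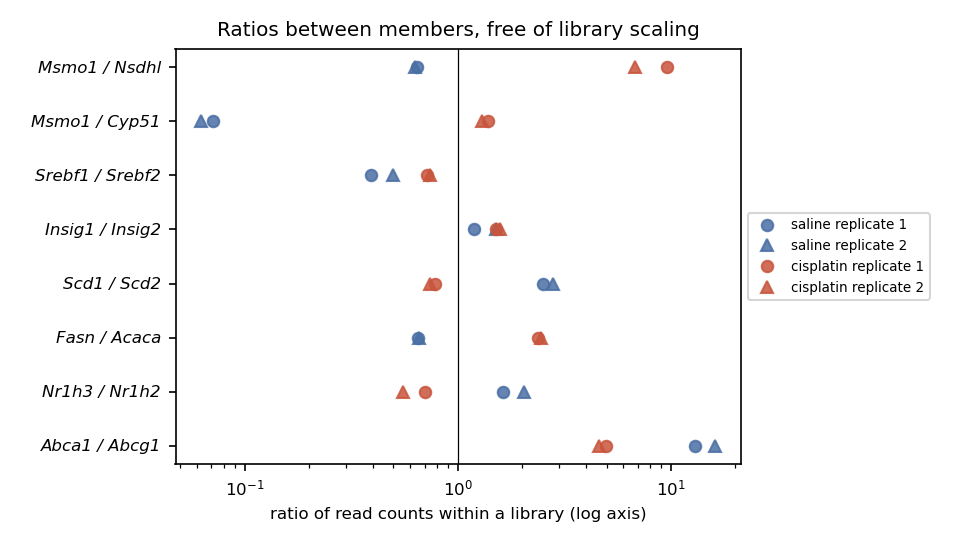
Ratio of read counts between members within each library (log axis, line at 1), with saline in blue and cisplatin in red. Msmo1 over Nsdhl, Msmo1 over Cyp51 and Fasn over Acaca cross from below 1 in saline to above 1 after cisplatin, and Scd1 over Scd2 and Nr1h3 over Nr1h2 cross the other way.

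Fatty acid synthesis starts with malonyl-CoA and ends with desaturation. Of its 5 members 3 fell (60%, against 36.4% of all genes) and 1 rose (20%, against 37.2%). Acaca, the acetyl-CoA carboxylase that commits carbon to the route, had 24.8 and 26.1 CPM after cisplatin against 51.9 and 52.8 CPM in saline. Fasn, the fatty acid synthase that uses its product, had 59.3 and 64.2 CPM against 33.98 and 34.67 CPM. The cisplatin libraries were below saline for Acaca (-1.04, SE 0.07) and above it for Fasn (0.85, SE 0.07), with edgeR adjusted p of 1.77e-10 and 1.39e-09. Fasn over Acaca in counts was 2.39 and 2.45 against 0.655 and 0.656.

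Elovl6, the elongase that turns palmitate into stearate, had 15.7 and 18.7 CPM against 27.8 and 33.6 CPM, a fall without overlap (-0.84, SE 0.11, edgeR adjusted p 9.83e-07), though limma on log2(FPKM + 0.1) did not call it (adjusted p 0.0888). The stearoyl-CoA desaturases Scd1 and Scd2 are neighbouring paralogs on chromosome 19. Scd1 fell 3.30-fold, from 219 and 231 CPM to 68.5 and 67.9 CPM (-1.72, SE 0.06, edgeR adjusted p 1.65e-15). Scd2 had 87.4 and 91.2 CPM against 86.8 and 82.4 CPM and was not called (0.08, SE 0.05, edgeR adjusted p 0.202). It was called higher under library size alone (0.44), under upper-quartile scaling (0.20) and by limma on both FPKM scales. Scd1 over Scd2 in counts was 0.784 and 0.745 after cisplatin and 2.52 and 2.80 in saline. The treatment of reads that match both paralogs is likewise unknown here.

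The LXR pair and their targets split by member. Nr1h3, which encodes LXR alpha, had 16.79 and 15.001 CPM after cisplatin against 37.1 and 36.6 CPM in saline, a 2.32-fold fall without overlap (-1.21, SE 0.09, edgeR adjusted p 4.07e-10). Nr1h2, which encodes LXR beta, had 23.79 and 27.15 CPM against 22.8 and 17.8 CPM. Its rise (0.34, SE 0.11, edgeR adjusted p 0.0105) rested on single libraries: it was 0.24 without cisplatin replicate 2 (adjusted p 0.132) and 0.16 without saline replicate 2 (adjusted p 0.220), and DESeq2 did not call it (adjusted p 0.0877). Nr1h3 over Nr1h2 in counts was 0.706 and 0.553 against 1.63 and 2.06.

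The cholesterol exporters, both textbook LXR targets, moved in opposite directions. Abca1, which loads cholesterol onto lipid-poor apolipoprotein A-I, had 68.7 and 68.4 CPM after cisplatin against 110.2 and 114 CPM in saline (-0.71, SE 0.05, edgeR adjusted p 3.62e-10). Abcg1, which passes cholesterol to mature lipoprotein particles, had 13.9 and 14.8 CPM against 8.50 and 7.05 CPM (0.89, SE 0.13, edgeR adjusted p 3.87e-06). Neither gene's groups overlapped, and Abca1 over Abcg1 in counts was 4.95 and 4.63 against 12.97 and 16.19. Mylip, a ubiquitin ligase that degrades lipoprotein receptors, had 40.8 and 40.3 CPM against 46.5 and 46.2 CPM. Its small fall (-0.19, SE 0.07, edgeR adjusted p 0.0176) was lost without cisplatin replicate 1 (adjusted p 0.0745) or replicate 2 (adjusted p 0.101), by DESeq2 (adjusted p 0.0768) and with upper-quartile scaling, and with library size alone it turned to 0.17. The median of these 5 genes likewise turned from -0.19 to 0.17, while that of all genes moved from 0.04 to 0.41.

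**Figure D4:**
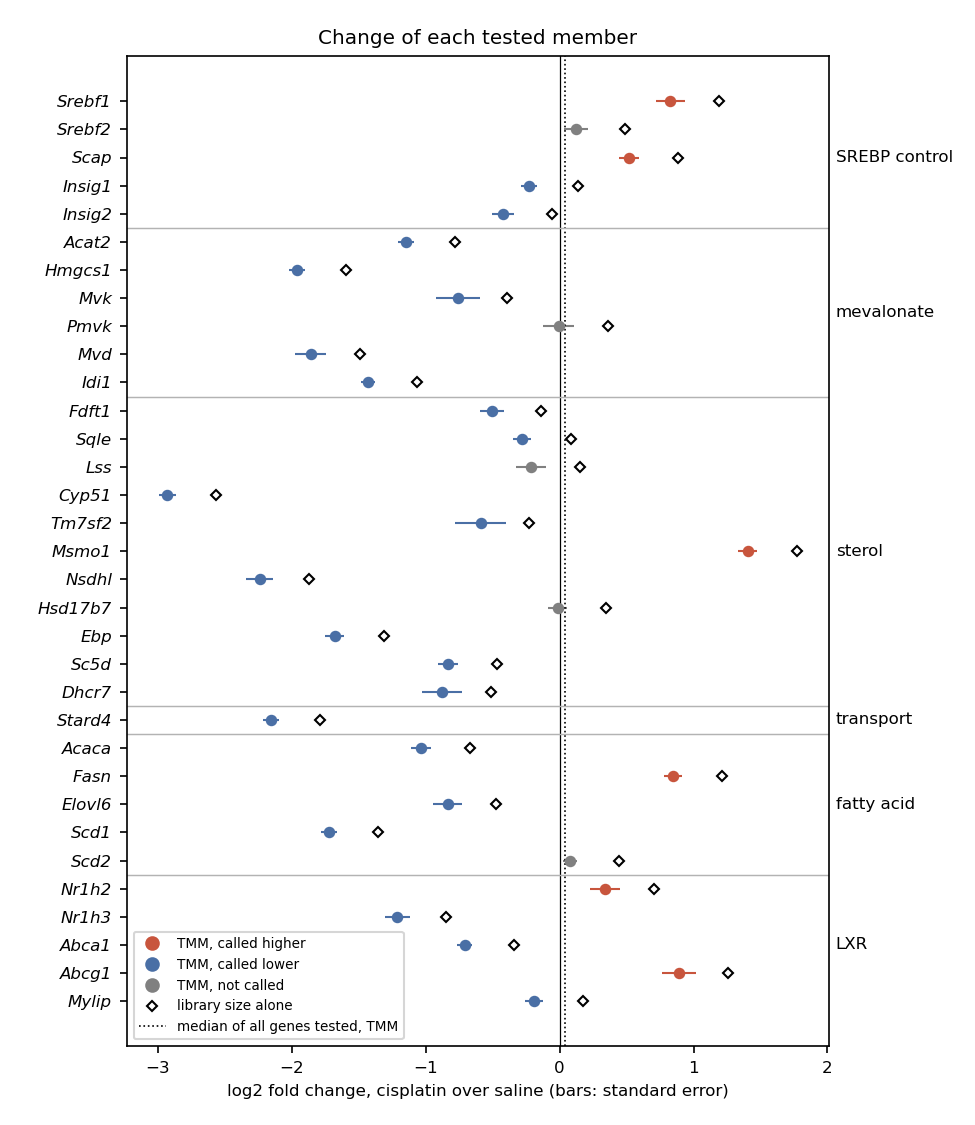
Log2 fold change, cisplatin over saline, of the 33 tested members with standard error bars, coloured by call, and open diamonds for library size alone. Diamonds sit to the right of the filled points throughout, and Cyp51 and Msmo1 mark the ends at -2.93 and 1.40.

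Other genes of these pathways were read from 6 further lists, with up to 4 of the most abundant tested members of each named. With library size alone all 17419 genes split into 9110 higher and 4207 lower (median 0.41), against which list counts are to be read. Of 21 other fatty acid synthesis genes 19 were tested, 15 fell (78.9%, against 36.4% of all genes) and 3 rose (median log2 fold change -0.78), and with library size alone 12 fell and 3 rose (median -0.41). Acss2, which makes acetyl-CoA from acetate, fell by 2.54, the malic enzyme Me1 by 1.02, the citrate lyase Acly by 0.70 and the elongase Elovl7 by 0.41 on the log2 scale. Elovl7 was not called when library size alone was used (-0.04). Aacs, which feeds ketone bodies into lipid synthesis, was singled out after its values were seen. It had 490 and 530 counts after cisplatin and 3452 and 4605 in saline (-3.19, edgeR adjusted p 4.48e-19).

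Of 14 genes of SREBP processing and sterol sensing, 8 fell (57.1%, against 36.4% of all genes) and 3 rose (21.4%, against 37.2%), with a median of -0.51. With library size alone 7 fell and 6 rose, with a median of -0.14 against 0.41 over all genes. The ubiquitin ligase March6, which takes part in sterol-dependent protein degradation, fell by 1.78 on the log2 scale, and Erlin2, a membrane partner in that process, fell by 1.07. Sp1, a cofactor of SREBP at promoters, was not called (0.02, edgeR adjusted p 0.703). The 3 NF-Y subunits, which bind CCAAT, split: Nfya and Nfyb rose (1.31 and 0.89) and Nfyc fell (-1.29), and they were named after their values were seen.

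Of 15 isoprenoid branch and accessory sterol genes 11 fell (73.3%, against 36.4% of all genes) and 2 rose (13.3%, against 37.2%), with a median of -0.67. With library size alone 8 fell and 4 rose, with a median of -0.30 against 0.41 over all genes. Nus1, a subunit of the dolichol-making prenyltransferase, fell by 1.75, and Cyb5b, an outer mitochondrial membrane cytochrome b5, fell by 1.25. Por, the reductase that supplies electrons to Cyp51 and squalene epoxidase, fell by 0.16 with TMM (edgeR adjusted p 0.0379) and had 0.21 with library size alone. Cyb5r3, a cytochrome b5 reductase, rose by 0.24.

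Genes of cholesterol uptake, storage and transport were evenly split, with 7 of 15 higher and 7 lower (median 0.05), as all genes tested were, at 37.2% higher and 36.4% lower. Lrp1, a large endocytic receptor, rose 3.35-fold, from 114.2 ± 0.252 to 382 ± 4.83 CPM (SD, n = 2). Lipa, the lysosomal acid lipase, fell by 2.34, Nceh1, a cholesteryl ester hydrolase, by 2.18 and Gramd1b, a sterol carrier at membrane contacts, by 1.33 on the log2 scale. Among 13 LXR partners and further targets 10 were tested, 6 fell (60%, against 36.4% of all genes) and 3 rose (30%, against 37.2%), with a median of -0.35. With library size alone 5 fell and 5 rose, with a median of 0.01 against 0.41 over all genes. Smpdl3a and lipoprotein lipase (Lpl) fell by 1.58 and 1.12, the corepressor Ncor1 by 0.56, and Tgm2 rose by 0.29.

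Of 8 oxysterol and bile acid enzymes 7 were tested, 3 rose and 3 fell (42.9% each, near the shares of all genes). The median was -0.50, and -0.14 with library size alone, when that of all genes was 0.41. Cyp7b1, which hydroxylates oxysterols, fell from 152.9 ± 12.2 to 17.0 ± 2.08 CPM (SD, n = 2), a log2 fold change of -3.17. Cyp27a1, the mitochondrial sterol hydroxylase, and the oxysterol hydroxylase Cyp39a1 fell by 1.45 and 0.99, and Hsd3b7 rose by 1.06. Ch25h, the cholesterol hydroxylase induced in activated macrophages, was named after its values were seen. It had 286 and 303 counts after cisplatin and 17 and 33 in saline (3.35, edgeR adjusted p 8.60e-12), in the libraries whose macrophage markers were also higher, and the part of those cells in its level was not tested.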

How the data were processed

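Kidney RNA was sequenced in 2 cisplatin and 2 saline libraries as directional paired reads, per the labels' protocols. The authors deposited raw read counts per gene for 29190 genes, and FPKM values (scaled for transcript length and library size) for 29157 of them. Per the submitters' processing notes, which carry no versions, the build was GRCm38 and the tools included TopHat2, bcl2fastq and edgeR. The sources used here do not give the counter, the annotation release, whether strand was used, or how reads matching more than 1 gene were treated.

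Groups were taken from the treatment label. The cisplatin libraries held 20662475 (replicate 1) and 23150274 (replicate 2) counts, and the saline libraries 21483564 and 27122403. The limit of 3 counts was 0.111 to 0.145 CPM. Within-group correlations of log2 CPM were 0.993 (cisplatin) and 0.992 (saline), and the replicates differed by more than counting noise (chi-square over degrees of freedom 8.63 and 26.6).

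Counts were tested in R 4.3.3 with edgeR 4.0.16 (filterByExpr, TMM, quasi-likelihood test, 2 residual degrees of freedom), with Benjamini-Hochberg adjustment over 17419 genes and calls at an adjusted p under 0.05. The common biological coefficient of variation was 6.42%. A fold or log2 fold change in the text is the fitted value, and an SE is that of the fitted log2 value. The test was checked on simulated counts in which few genes changed, equally many in each direction. That check did not cover a response as broad as the one in these libraries. Alternatives used other scalings and filters, DESeq2 1.42.0, limma-trend 3.58.1 on log2(FPKM + 0.1) and log2(FPKM + 1), the replicate number as a block, and omission of each library in turn. One alternative, leaving out ribosomal RNA rows, was chosen after seeing the data. Ratios and sums were computed from counts and CPM.

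The members, the further gene lists and the tests were chosen with earlier results of these data known. Every member was named, and of each further list the 4 tested genes of highest mean CPM, of which 1 is not reported here. Gene positions are those of GENCODE M21 (GRCm38), to which 99.2% of gene identifiers matched without their version. Promoter sequences are from RefSeq (GRCm38.p6), with no entry for Stard4, Fdft1, Abcg1, Fdps, Sqle, Scd1 and Scd2.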

Additional observations from a re-analysis of the deposited data

How the results depend on the processing

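Genes called over all tested numbered 12820 and ranged from 11490 to 12504 when a library was left out. Members called higher were 6 and ranged from 5 to 6, and members called lower were 22 and ranged from 20 to 22, under the same omissions. With a replicate block 12653 genes were called and the members stayed at 6 higher and 22 lower, with all 33 tested members on the same side of the threshold. The correlation of deviations between same-numbered libraries was -0.02, so the numbers were not taken as pairs.

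Members called higher rose to 10 with library size alone, and members called lower numbered 14 with limma-trend on log2(FPKM + 0.1) and 14 on log2(FPKM + 1), with 8 higher on each. DESeq2 called 5 higher and 20 lower, and upper-quartile scaling 8 and 20. RLE scaling, no filter, the 1 CPM filter and leaving out ribosomal RNA rows each gave 6 and 22. These counts are to be read against those over all genes, 6487 higher and 6333 lower of 17419 in the main fit. All genes split into 9110 and 4207 with library size alone, and into 7298 and 5623 with upper-quartile scaling. Limma-trend gave 7816 and 4023 of 24751 on log2(FPKM + 0.1), and 7774 and 3983 on log2(FPKM + 1). DESeq2 gave 5096 and 5607 of 21857, and RLE scaling 6375 and 6431 of 17419.

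Signs turned in log2 fold changes that lay from -0.28 (Sqle) to -0.008 (Pmvk) with TMM. Of the genes concerned, Insig1, Sqle and Mylip had been called lower with TMM. The median over all genes was 0.04 with TMM and 0.41 with library size alone. With library size alone Insig1 was 0.14, Pmvk 0.36, Sqle 0.084, Lss 0.15, Hsd17b7 0.35 and Mylip 0.17. On log2(FPKM + 0.1) Insig1 was 0.044, Pmvk 0.26, Lss 0.059, Hsd17b7 0.25 and Mylip 0.077, and on log2(FPKM + 1) these were 0.041, 0.21, 0.039, 0.21 and 0.070. With upper-quartile scaling Pmvk was 0.11 and Hsd17b7 0.10, and with the 1 CPM filter 0.018 and 0.0100. Leaving out a library moved Hsd17b7 between -0.049 (without saline replicate 1) and 0.015 (without cisplatin replicate 1), with 0.0036 without saline replicate 2. The cause was not tested. On both FPKM scales the falls of Insig2, Fdft1, Sqle, Tm7sf2, Dhcr7 and Elovl6 kept their sign but were not called, and upper-quartile scaling did not call Insig1. With 2 libraries a group and 2 residual degrees of freedom, the spread of each gene rests largely on values shared across genes, and low members such as Mvk, Tm7sf2 and Dhcr7 have the largest standard errors.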
